A study of Mus musculus with 6 samples.

Results

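The genes described here are 32 genes of the mouse peroxisome, taken by symbol from a table of 55254 genes in whole liver: 13 *Pex* genes, which build the organelle, and 19 genes for its lipid enzymes, membrane proteins and catalase. All 32 were found in the table, each in 1 row. The liver was compared between WT mice on a normal diet (ND, n = 3) and WT mice after 7 weeks on CDA-HFD (n = 3), a high-fat diet without choline, in which free amino acids replace protein and which is used to model steatohepatitis. The time on ND is not given in the labels. The study's methods describe C57BL/6J mice, males for the CDA-HFD model, started on it over a range of young adult ages, and the labels call the samples biological replicates. Their extraction text speaks of sorted cells while the source is given as liver, and albumin (*Alb*), made by hepatocytes, stood at 15387 to 15615 TPM in ND and at 11964 to 13347 TPM in CDA-HFD. TPM, the deposited unit, is a transcript level corrected for length and scaled to 1000000 per library.

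Peroxisomes shorten fatty acids that mitochondria handle poorly, such as very long, branched and dicarboxylic chains, and the side chain of bile acid precursors. They also carry out alpha-oxidation of phytanic acid and the first steps of ether lipid (plasmalogen) synthesis. Their acyl-CoA oxidases make hydrogen peroxide, which catalase breaks down. Peroxins, the products of the *Pex* genes, insert membrane proteins, import finished enzymes from the cytosol through the receptors PEX5 and PEX7, and drive elongation and division of the organelle. In rodent liver the fatty acid sensor PPAR-alpha, paired with RXR, induces many of these genes and increases peroxisome number.

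In this comparison 3 of the 32 genes rose, 2 fell and the other 27 moved by less than the fold limit. The words rose and fell are kept for an adjusted p below 0.05 (limma on log2(TPM + 1), Benjamini-Hochberg over 14730 genes) together with a log2 fold change of CDA-HFD over ND of at least 1 in size. *Far1* and *Agps*, for ether lipid synthesis, and *Pex11a*, for peroxisome division, rose 4.91-fold, 2.24-fold and 2.82-fold in mean TPM. *Cat* (catalase) and *Hacl1* (alpha-oxidation) fell, with ND means 2.04 and 2.08 times those of CDA-HFD. Of all genes tested 21.1% rose and 3.79% fell, so that the share of the 32 that rose (9.38%) was below the background and the share that fell (6.25%) was 2 genes. In either direction it was 5 genes (15.6%, against 24.9% of all genes).

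All of the 32 passed the filter of a mean of at least 1 TPM. At the adjusted p alone, with no fold limit, 11 were higher in CDA-HFD (34.4%, against 51.6% of all genes tested) and 13 were lower (40.6%, against 14.4%), together 24 (75%, against 66.0%). The word higher or lower is used for such genes below. The 3 ND and 3 CDA-HFD libraries did not overlap in 26 of the 32 (81.2%, against 71.0% of all genes), with CDA-HFD above ND in 12 (37.5%, against 54.9%) and below it in 14 (43.8%, against 16.1%). The median log2 fold change was −0.14 over the 32 and 0.32 over all genes tested. Because TPM share out a fixed total, the changes of the genes that rose or fell, and of some others, are also given less that median of 0.32. Of the 32, 10 lay above it and 22 below. In 17 other ways of processing the values the median of the 32 stayed below that of all genes, by 0.16 to 0.49 on the log2 scale. Median-of-ratios scaling, which brings the all-gene median to −0.01, left 5 genes higher (*Pex19*, *Pex11a*, *Ehhadh*, *Agps* and *Far1*; 15.6%, against 32.2% of all genes) and 20 lower (62.5%, against 29.8%). Quantile normalization left 9 higher (28.1%, against 28.4%) and 15 lower (46.9%, against 37.4%).

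**Figure D1:**
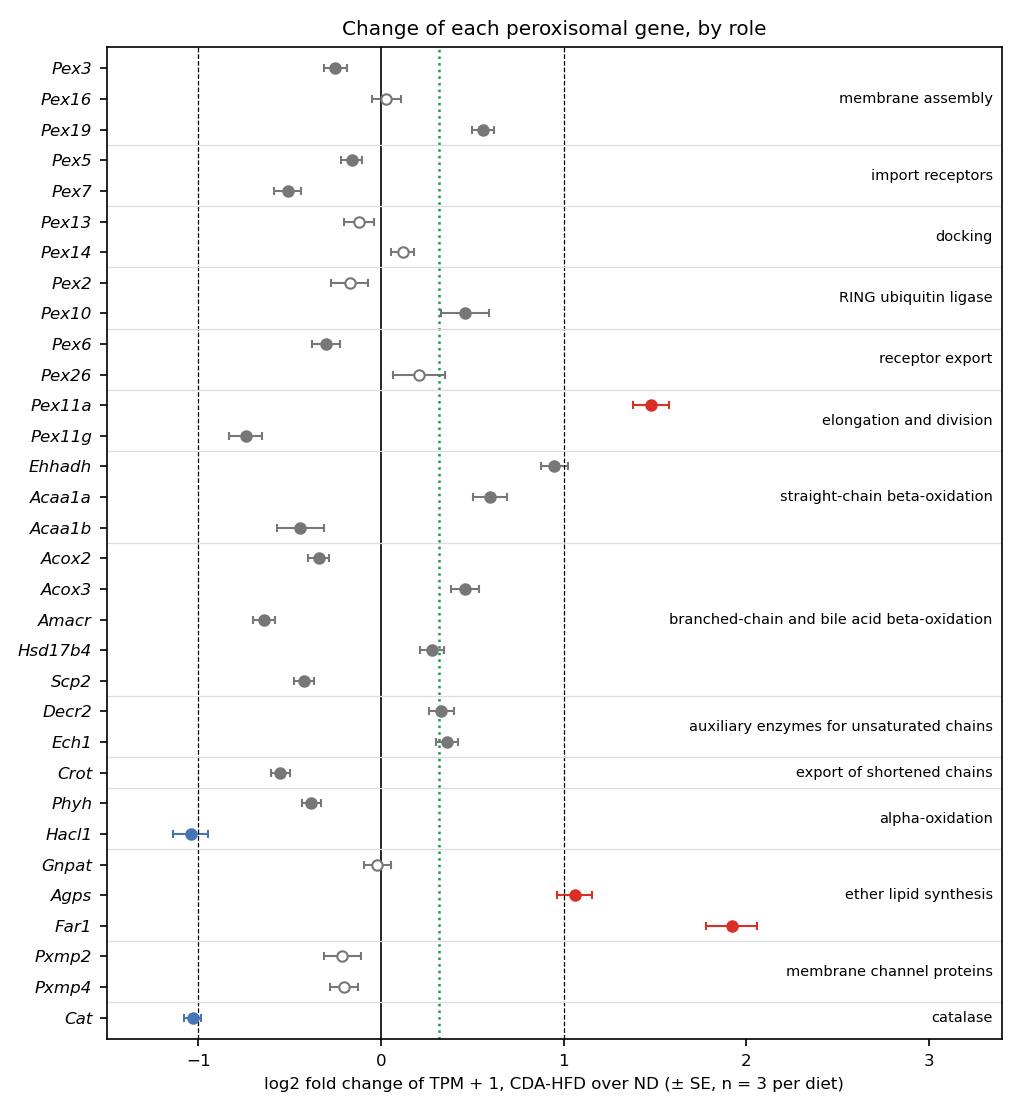
Log2 fold change of TPM + 1, CDA-HFD over ND, with its SE (n = 3 per diet) for each of the 32 genes, grouped by role. Red marks the 3 genes that rose, blue the 2 that fell, filled grey the other genes with an adjusted p below 0.05 and open circles the 8 without; dashed lines stand at the fold limits and the green dotted line at the all-gene median of 0.32, below which 22 genes lie.

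Summed over the 32, the level was 1.30%, 1.29% and 1.30% of all TPM on ND, against 1.11%, 1.02% and 1.10% on CDA-HFD. The enzymes and other proteins made up most of it, at 12108 to 12221 TPM in ND and 9320 to 10084 TPM in CDA-HFD. The *Pex* genes together came to 804.5 to 817.1 TPM in ND and 910.5 to 1019 TPM in CDA-HFD. So the summed enzyme level was lower and the summed *Pex* level higher on CDA-HFD, each with no overlap between the diets. Without *Pex11a* the *Pex* genes came to 719.7, 721.2 and 718.3 TPM in ND and 735.4, 685.7 and 741.2 TPM in CDA-HFD, and the diets overlapped. Among the 32, *Scp2*, *Phyh* and *Cat* stood highest on both diets, *Scp2* as the 34th most abundant gene of the table by mean TPM, and *Far1* stood lowest in ND. These highest genes weigh most in the enzyme sum and were all lower on CDA-HFD, so that sum does not stand for all 19 genes. At the adjusted p alone 8 of the 19 were higher and 8 lower (51.6% and 14.4% of all genes tested). Under quantile normalization *Scp2* and *Phyh* stood at −0.03 and −0.02.

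The liver also differed between the diets in its cell type markers. The 21 hepatocyte markers matched in the table summed to 68676 to 69394 TPM in ND and 54822 to 58643 TPM in CDA-HFD, with 14 of 21 lower and 1 fallen (5 under median-of-ratios scaling). All 12 macrophage markers rose, from sums of 843.1 to 959.2 TPM to sums of 6990 to 7634 TPM, as did all 6 tested cholangiocyte markers (77.3 to 88.5 TPM, then 1129 to 1240 TPM, or 10.02 to 11.63 TPM and 119.0 to 129.3 TPM without *Spp1*, which macrophages also make) and 7 of 9 stellate cell and myofibroblast markers (4 under quantile normalization; 83.6 to 86.8 TPM, then 848.5 to 955.4 TPM). Of the tested markers, 6 of 6 for neutrophils (sums of 20.1 to 28.3 TPM, then 120.2 to 183.2 TPM), 7 of 8 for T and NK cells (3 under quantile normalization; 9.49 to 9.98 TPM, then 49.4 to 59.4 TPM) and 3 of 4 for B cells (1 under either scaling; 32.9 to 43.5 TPM, then 97.8 to 133.4 TPM) rose. Endothelial sums were 199.5 to 209.5 TPM and 207.8 to 252.5 TPM, with 2 of 8 risen and 4 lower, of which 1 fell. The median log2 fold change of the endothelial markers was −0.36. Erythroid sums were 738.1 to 918.3 TPM and 539.4 to 1078 TPM, with 1 of 5 fallen. No marker was at 0 in all 6 libraries, and *Ly6g* was at 0 in the 3 ND libraries. In whole liver, fewer cells of a type and less RNA per cell cannot be told apart. Relative to the summed hepatocyte markers of the same library, the 32 genes came to 18.8%, 18.6% and 18.9% in ND and to 19.8%, 17.5% and 20.1% in CDA-HFD, so that the diets overlapped on that scale. The part of the marker shift in the results below was not tested.

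The genes on which the results turn are shown by the sequence at their starts, since PPAR-alpha with RXR binds the direct repeat DR1 (AGGTCA, 1 free base, AGGTCA) and broadly expressed genes often carry GC boxes (GGGCGG). Each window runs from 250 bases before to 50 after the RefSeq start (GRCm38.p6), 5′ to 3′ on the gene's strand, with AGGTCA and GGGCGG motifs on either strand in capitals. The windows are *Pex11a* at chr7:79743082-79743381 (minus strand), *Far1* at chr7:113513584-113513883 (plus), *Agps* at chr2:75831927-75832226 (plus), *Cat* at chr2:103485104-103485403 (minus) and *Hacl1* at chr14:31640916-31641215 (minus).
Pex11a: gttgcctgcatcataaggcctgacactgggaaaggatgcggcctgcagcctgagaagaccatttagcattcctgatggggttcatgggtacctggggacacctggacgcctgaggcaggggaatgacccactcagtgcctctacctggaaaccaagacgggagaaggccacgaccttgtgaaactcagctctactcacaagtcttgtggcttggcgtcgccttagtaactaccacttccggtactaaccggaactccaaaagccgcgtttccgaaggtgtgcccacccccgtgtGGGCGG
Far1: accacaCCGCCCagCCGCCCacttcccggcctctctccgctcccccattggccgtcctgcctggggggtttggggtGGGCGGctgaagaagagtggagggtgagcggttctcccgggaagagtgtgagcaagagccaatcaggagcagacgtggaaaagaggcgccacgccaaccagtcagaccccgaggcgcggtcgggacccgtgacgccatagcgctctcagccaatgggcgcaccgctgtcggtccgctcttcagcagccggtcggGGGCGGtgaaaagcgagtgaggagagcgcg
Agps: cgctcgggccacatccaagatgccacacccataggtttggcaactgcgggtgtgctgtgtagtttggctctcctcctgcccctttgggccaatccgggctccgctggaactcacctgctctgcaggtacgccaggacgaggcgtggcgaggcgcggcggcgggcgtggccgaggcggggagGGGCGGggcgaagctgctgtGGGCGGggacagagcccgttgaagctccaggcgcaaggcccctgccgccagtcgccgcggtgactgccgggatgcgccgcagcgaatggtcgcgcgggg
Cat: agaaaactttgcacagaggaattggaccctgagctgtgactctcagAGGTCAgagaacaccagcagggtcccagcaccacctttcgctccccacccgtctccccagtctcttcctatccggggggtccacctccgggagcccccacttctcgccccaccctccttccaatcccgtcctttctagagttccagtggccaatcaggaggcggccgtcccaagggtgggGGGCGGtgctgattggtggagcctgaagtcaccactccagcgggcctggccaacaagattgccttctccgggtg
Hacl1: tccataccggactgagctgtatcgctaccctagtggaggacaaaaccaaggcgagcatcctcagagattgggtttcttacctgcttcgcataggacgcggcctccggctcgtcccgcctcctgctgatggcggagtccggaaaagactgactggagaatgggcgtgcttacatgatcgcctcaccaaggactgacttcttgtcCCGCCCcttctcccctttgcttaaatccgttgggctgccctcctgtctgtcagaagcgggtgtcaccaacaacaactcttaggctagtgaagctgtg

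All 5 windows hold at least 1 GC box, with 4 in *Far1* and 2 in *Agps*, and *Cat* alone of the 5 holds AGGTCA, 204 bases before its start. Of the 32 genes 27 matched the promoter table; *Pex19*, *Pex2*, *Amacr*, *Hsd17b4* and *Pxmp2* had no entry. A full DR1 was in 0 of the 27, against 13 of 27025 genes with a window (0.0481%). AGGTCA was in 4 of the 27 (14.8%; *Cat*, *Pex11g*, *Scp2* and *Phyh*), against 18.1% of all genes and 15.7% of the 10383 tested genes with a window. GGGCGG was in 22 of the 27 (81.5%), against 38.2% of all genes and 65.8% of the same tested genes. These matches describe the letters in the windows only.

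Membrane assembly is the first step of biogenesis, in which PEX19 carries new membrane proteins to PEX3 and PEX16. *Pex19* was at 110.9, 108.5 and 104.8 TPM in ND and at 169.2, 156.6 and 153.2 TPM in CDA-HFD. Every CDA-HFD library lay above every ND library (log2 fold change 0.56 ± 0.06 (SE), adjusted p = 8.74e-05, 0.24 relative to the all-gene median). *Pex3*, the docking receptor for PEX19, was lower, with means of 43.5 ± 1.00 TPM on ND and 36.5 ± 1.27 TPM on CDA-HFD (± SD, n = 3 per diet, as for all such pairs; −0.25 ± 0.06, adjusted p = 0.0095). *Adat2* overlaps 11.1% of the exon bases of *Pex3* on the opposite strand, at means of 6.45 and 8.80 TPM. *Pex16* had log2 fold change 0.03 ± 0.08 (adjusted p = 0.745), with overlapping diets and a sign that turned under median-of-ratios scaling (−0.33).

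Of the receptors that carry enzymes into the matrix, PEX5 reads the common C-terminal signal, and PEX7 reads the N-terminal signal of a small set that includes thiolase, phytanoyl-CoA hydroxylase and AGPS. *Pex7* was at 29.1, 30.0 and 30.1 TPM in ND and at 19.3, 21.1 and 21.7 TPM in CDA-HFD. The CDA-HFD libraries were all lower (−0.51 ± 0.07, adjusted p = 0.000484, −0.83 relative to the all-gene median). *Pex5* was lower by less, from 118.8 ± 5.28 to 106.1 ± 3.14 TPM (−0.16 ± 0.06, adjusted p = 0.0422), and did not pass in 6 of the 17 alternatives, among them leaving out ND replicate 1 or 2 or CDA-HFD replicate 1 or 2 (adjusted p = 0.0841 to 0.128 over these 4). The ratio of *Pex5* to *Pex7* within a library was 3.74 to 4.18 in ND and 4.88 to 5.50 in CDA-HFD.

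For docking and receptor recycling the differences were small on TPM as deposited. *Pex13* and *Pex14*, which form the docking site at the membrane, had log2 fold changes of −0.12 ± 0.08 and 0.12 ± 0.06 (adjusted p = 0.231 and 0.119). *Pex13* was lower under median-of-ratios scaling (−0.48, adjusted p = 0.00148) and quantile normalization (−0.37, adjusted p = 0.00429). The sign of *Pex14* turned under median-of-ratios scaling (−0.24, adjusted p = 0.02) and quantile normalization (−0.12, adjusted p = 0.12). *Pex14* shares 31.4% of its exon bases with *Gm17029* on the opposite strand, a gene of at most 0.144 TPM. *Pex2* and *Pex10* encode subunits of the RING ubiquitin ligase that marks PEX5 for return to the cytosol. *Pex2* was at 58.9 to 76.9 TPM in ND and 58.7 to 63.0 TPM in CDA-HFD (−0.17 ± 0.10, adjusted p = 0.172), with overlap, but was lower without ND replicate 1 (−0.28, adjusted p = 0.0137) and under both scalings. *Pex10*, the rarest *Pex* gene of the 32, was at 8.93, 8.17 and 6.32 TPM in ND and 11.8, 10.1 and 11.1 TPM in CDA-HFD, on 72 to 93 and 121 to 155 reads per library. It was higher (0.46 ± 0.13, adjusted p = 0.0154), but did not pass under median-of-ratios scaling (0.13) or without CDA-HFD replicate 1 (0.41, adjusted p = 0.0529), and its sign turned under quantile normalization (−0.16). *Pex6*, an AAA ATPase that pulls receptors from the membrane, was lower, from 75.7 ± 1.90 to 61.5 ± 5.33 TPM (−0.30 ± 0.08, adjusted p = 0.00877). *Pex26*, the membrane anchor of that ATPase, ranged from 12.5 to 18.6 TPM in ND and from 17.2 to 19.7 TPM in CDA-HFD (0.21 ± 0.14, adjusted p = 0.222), again with a sign that turned under median-of-ratios scaling (−0.13) and quantile normalization (−0.26).

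The PEX11 proteins curve and elongate the membrane before division, and their genes moved apart. *Pex11a* (GRCm38 chromosome 7, 79735957 to 79743131), the form known to be induced by peroxisome proliferators in rodents, was at 97.4, 83.3 and 92.2 TPM in ND and at 283.7, 224.8 and 261.2 TPM in CDA-HFD. The lowest CDA-HFD library was more than 2 times the highest ND library, and *Pex11a* rose (1.48 ± 0.10, adjusted p = 5.31e-06, 1.16 relative to the all-gene median). *Pex11g* was at 20.2, 20.7 and 21.6 TPM in ND and at 11.3, 11.6 and 13.4 TPM in CDA-HFD. It was lower in every CDA-HFD library (−0.74 ± 0.09, adjusted p = 0.000175), and passed the fold limit under median-of-ratios scaling (−1.08) and quantile normalization (−1.24). *Gm44775*, on the opposite strand, covers 48.6% of its exon bases and had at most 0.167 TPM. The ratio of *Pex11a* to *Pex11g* was 4.84, 4.03 and 4.27 in ND and 25.1, 19.4 and 19.4 in CDA-HFD, a 4.87-fold difference of means.

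**Figure D2:**
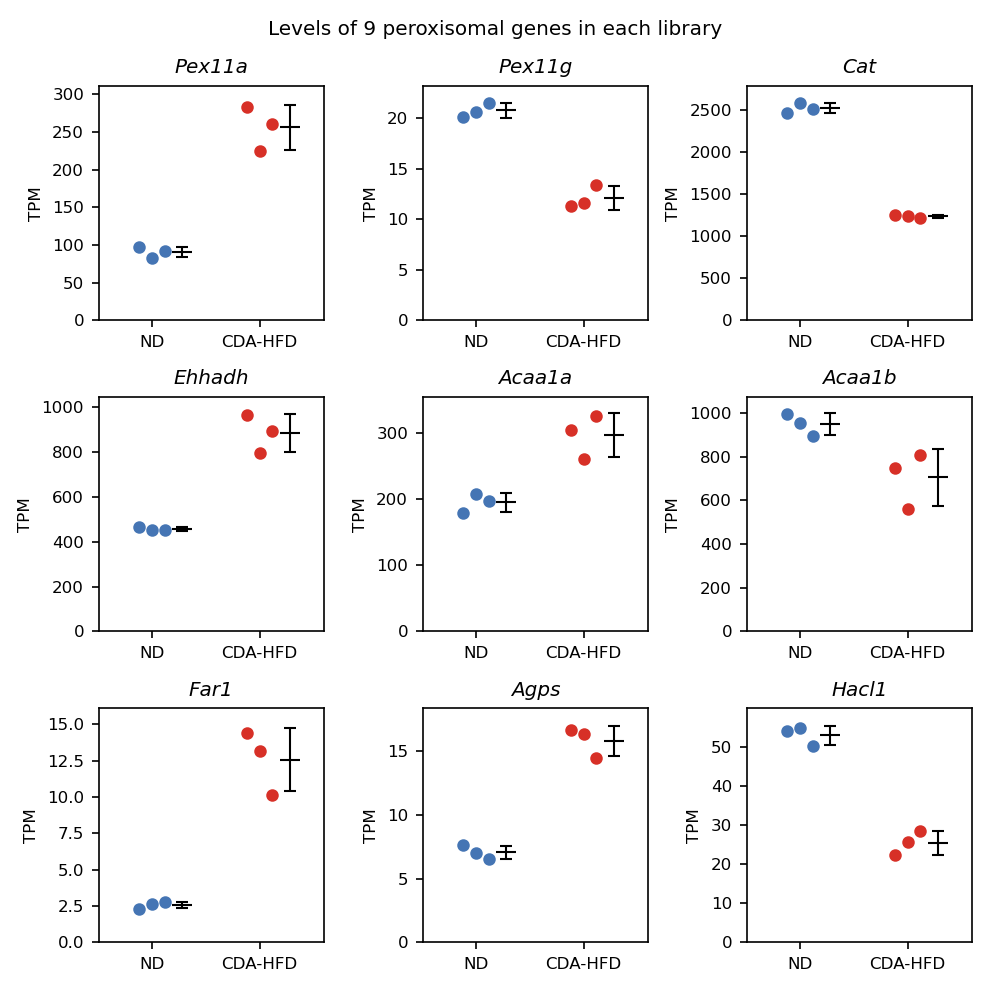
TPM in each of the 6 libraries for 9 peroxisomal genes, with the mean and SD of each diet (n = 3) beside the points; every axis starts at 0. The diets do not overlap in any of the 9, with *Pex11a*, *Ehhadh*, *Acaa1a*, *Far1* and *Agps* above ND on CDA-HFD and *Pex11g*, *Cat*, *Acaa1b* and *Hacl1* below.

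The straight-chain beta-oxidation genes did not move together. *Ehhadh* (GRCm38 chromosome 16, 21761287 to 21787807) encodes the L-bifunctional enzyme, which hydrates and dehydrogenates the acyl-CoA, and was at 466.5, 452.1 and 451.0 TPM in ND and at 964.8, 794.1 and 891.0 TPM in CDA-HFD. All CDA-HFD libraries were far above all ND libraries, and the gene was higher (0.95 ± 0.07, adjusted p = 1.34e-05), just inside the fold limit. It passed that limit under quantile normalization (1.05) and without CDA-HFD replicate 2 (1.02), and was at 0.58 under median-of-ratios scaling. Among the 32 genes it moved from rank 8 in ND to rank 4 in CDA-HFD.

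The thiolases *Acaa1a* and *Acaa1b*, neighbouring mouse paralogs on chromosome 9 that both cleave 3-ketoacyl-CoA, went opposite ways. *Acaa1a* was at 179.7, 208.4 and 197.1 TPM in ND and at 305.3, 261.3 and 325.6 TPM in CDA-HFD (0.60 ± 0.09, adjusted p = 0.000667). *Acaa1b* was at 996.1, 954.2 and 894.1 TPM in ND and at 746.2, 560.2 and 806.3 TPM in CDA-HFD (−0.44 ± 0.13, adjusted p = 0.015). Neither gene's diets overlapped; under median-of-ratios scaling *Acaa1a* no longer passed (0.24, adjusted p = 0.0784), and under quantile normalization *Acaa1b* did not (−0.31, adjusted p = 0.0693). Without CDA-HFD replicate 2, its lowest library, the change of *Acaa1b* was −0.29. The ratio of *Acaa1a* to *Acaa1b* was 0.180, 0.218 and 0.220 in ND and 0.409, 0.467 and 0.404 in CDA-HFD, and such a ratio does not depend on a linear scaling of the library. Of all 75-base windows of their transcripts, 12.6% for *Acaa1a* and 32.3% for *Acaa1b* also occur elsewhere, mostly in each other, so their split is uncertain to that extent.

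Branched-chain and bile acid oxidation had 5 genes, of which 3 were lower and 2 higher. *Amacr*, the racemase that prepares 2-methyl chains, was at 217.6, 201.1 and 204.8 TPM in ND and at 138.1, 126.3 and 134.7 TPM in CDA-HFD. It was lower in every library (−0.64 ± 0.06, adjusted p = 4e-05, −0.96 relative to the all-gene median), and reached the fold limit under median-of-ratios scaling. *Acox2*, the branched-chain oxidase of bile acid synthesis, was lower, from 238.7 ± 11.3 to 188.1 ± 5.54 TPM (−0.34 ± 0.06, adjusted p = 0.00104). *Scp2*, whose products include SCPx, the thiolase for these chains, was lower as well, from 2625 ± 160 to 1955 ± 19.1 TPM (−0.42 ± 0.06, adjusted p = 0.00028), but stood at −0.03 (adjusted p = 0.615) under quantile normalization. Its TPM are for the whole gene and do not give the level of SCPx alone. A pseudogene, *Scp2-ps2*, shares most of the 25.6% of *Scp2* windows found elsewhere and had 173.3 and 127.6 TPM (−0.44 ± 0.05), so reads of the pair cannot be told apart there. *Acox3*, a second branched-chain oxidase, was higher, from 13.2 ± 0.417 to 18.5 ± 0.748 TPM (0.46 ± 0.08, adjusted p = 0.00106), with a sign that turned under quantile normalization (−0.04). *Hsd17b4*, the D-bifunctional enzyme used by these chains, was higher too, from 460.0 ± 12.2 to 559.6 ± 46.0 TPM (0.28 ± 0.07, adjusted p = 0.00679), and its sign turned under median-of-ratios scaling (−0.09). The ratio of *Ehhadh* to *Hsd17b4*, the genes of the L- and D-bifunctional enzymes, was 0.969 to 1.01 in ND and 1.52 to 1.64 in CDA-HFD. That of *Acox3* to *Acox2* was 0.0539 to 0.0565 in ND and 0.0938 to 0.105 in CDA-HFD.

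The auxiliary enzymes *Decr2* and *Ech1*, which prepare double bonds for oxidation, were both higher and close to the all-gene median. *Decr2* was at 219.4 to 251.0 TPM in ND and 280.9 to 306.7 TPM in CDA-HFD (0.33 ± 0.07, adjusted p = 0.00351), and *Ech1* at 548.2 to 573.4 and 676.0 to 767.7 TPM (0.36 ± 0.06, adjusted p = 0.00102). Their signs turned under median-of-ratios scaling, to −0.04 and −0.01. *Crot*, the carnitine octanoyltransferase that readies shortened chains for export, was at 857.5, 825.9 and 868.9 TPM in ND and at 610.7, 562.1 and 568.8 TPM in CDA-HFD. It was lower without overlap (−0.55 ± 0.05, adjusted p = 4.51e-05, −0.87 relative to the all-gene median).

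Of the alpha-oxidation genes 1 fell and the other was lower. *Hacl1* (GRCm38 chromosome 14, 31598730 to 31641286), the lyase that removes a single carbon from 2-hydroxy chains, was at 54.0, 54.7 and 50.2 TPM in ND and at 22.3, 25.5 and 28.4 TPM in CDA-HFD. The highest CDA-HFD library was far below the lowest ND library and the gene fell (−1.04 ± 0.10, adjusted p = 3.55e-05, −1.35 relative to the all-gene median). Without CDA-HFD replicate 1, its lowest library, the change was −0.95, short of the fold limit. *Gm49387*, on the same strand, covers 58.2% of the exon bases of *Hacl1* and was listed at 0 in all libraries. How reads in the shared bases were assigned is not given in the sources used here. The level of *Hacl1*, and its ratio with *Phyh* below, are uncertain to that extent. *Phyh*, the phytanoyl-CoA hydroxylase that acts before HACL1, was lower, from 2388 ± 30.1 to 1836 ± 103 TPM (−0.38 ± 0.05, adjusted p = 0.000425), but stood at −0.02 (adjusted p = 0.826) under quantile normalization. The ratio of *Phyh* to *Hacl1* was 43.9 to 47.2 in ND and 67.5 to 82.9 in CDA-HFD.

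On TPM as deposited, ether lipid synthesis held the largest rise of the 32, as well as a gene with no detectable difference. *Far1* (GRCm38 chromosome 7, 113513834 to 113571511) encodes the reductase that supplies the fatty alcohol, and was at 2.33, 2.61 and 2.75 TPM in ND and at 14.4, 13.1 and 10.2 TPM in CDA-HFD, on 75 to 97 and 438 to 562 reads per library. The lowest CDA-HFD library was more than 3 times the highest ND library, and *Far1* rose (1.92 ± 0.14, adjusted p = 8.95e-06, 1.6 relative to the all-gene median). *Agps* (GRCm38 chromosome 2, 75832177 to 75931350), the synthase that puts that alcohol into the ether bond, was at 7.61, 6.98 and 6.56 TPM in ND and at 16.6, 16.3 and 14.4 TPM in CDA-HFD. It rose without overlap (1.06 ± 0.10, adjusted p = 3.36e-05, 0.74 relative to the all-gene median). The change was below the fold limit under median-of-ratios scaling (0.73) and quantile normalization (0.48), at adjusted p = 0.000153 and 0.0011. *Gnpat*, the acyltransferase of the step before AGPS, was at 47.4, 53.7 and 46.6 TPM in ND and 49.4, 47.7 and 48.6 TPM in CDA-HFD (−0.02 ± 0.07, adjusted p = 0.839), with a sign that turned without ND replicate 2 (0.04). Under median-of-ratios scaling (−0.38, adjusted p = 0.00272) and quantile normalization (−0.28, adjusted p = 0.00805) *Gnpat* was lower. The ratio of *Agps* to *Gnpat* was 0.130 to 0.161 in ND and 0.297 to 0.342 in CDA-HFD, and that of *Far1* to *Gnpat* 0.0486 to 0.0590 and 0.209 to 0.292.

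**Figure D3:**
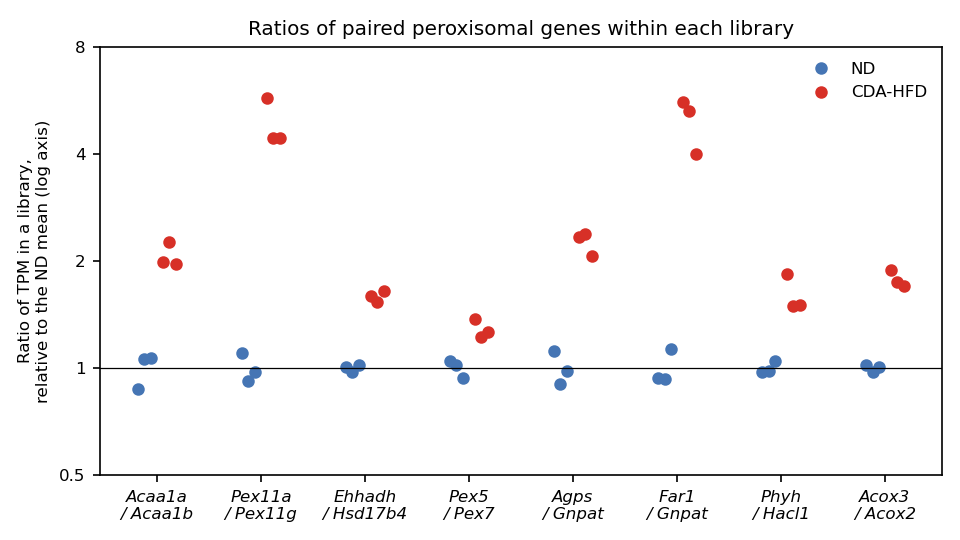
Ratio of TPM of 8 pairs of peroxisomal genes within each library, divided by the ND mean of that pair, on a log axis (blue ND, red CDA-HFD, 3 libraries each). The diets separate in every pair shown, from 1.29-fold for *Pex5* over *Pex7* to 4.96-fold for *Far1* over *Gnpat*; the pairs were chosen with values known.

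*Cat* (GRCm38 chromosome 2, 103453849 to 103485160), for the catalase that removes hydrogen peroxide from the oxidases, was at 2472, 2587 and 2512 TPM in ND and at 1257, 1236 and 1223 TPM in CDA-HFD. The libraries of each diet lay close together and the diets far apart, and *Cat* fell (−1.03 ± 0.04, adjusted p = 5.73e-07, −1.35 relative to the all-gene median). Under quantile normalization the change was −0.70, short of the fold limit. Relative to the summed hepatocyte markers *Cat* was at 3.56 to 3.73% in ND and 2.11 to 2.24% in CDA-HFD, and *Hacl1* at 0.0731 to 0.0790% and 0.0398 to 0.0519%. On that scale *Ehhadh* was at 0.652 to 0.672% and 1.35 to 1.72%, *Pex11a* at 0.120 to 0.140% and 0.383 to 0.505%, *Agps* at 0.00955 to 0.0110% and 0.0264 to 0.0296%, and *Far1* at 0.00335 to 0.00400% and 0.0186 to 0.0257%. Since these markers are themselves lower on CDA-HFD, the scale enlarges the rises, and only for *Cat* and *Hacl1* could it have turned the direction. The ratio of *Ehhadh* to *Cat* was 0.175 to 0.189 in ND and 0.643 to 0.767 in CDA-HFD.

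The membrane proteins *Pxmp2*, a channel for small solutes, and *Pxmp4* did not pass the test on TPM as deposited. *Pxmp2* was at 183.9 to 240.4 TPM in ND and 171.0 to 183.4 TPM in CDA-HFD, with no overlap (−0.21 ± 0.10, adjusted p = 0.104), and was lower without ND replicate 1 (−0.28, adjusted p = 0.0489). *Pxmp4* was at 126.9 to 151.8 and 116.8 to 127.2 TPM, with overlap (−0.20 ± 0.08, adjusted p = 0.0539), and was lower without ND replicate 2 (−0.26, adjusted p = 0.0164). Both were also lower under median-of-ratios scaling, quantile normalization and voom.

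The spread between mice was small for most of the 32. Their median coefficient of variation over the 3 libraries was 4.52% in ND and 5.43% in CDA-HFD, against 9.68% and 9.05% over all genes tested, which include many of lower level. *Pex26* in ND (19.99%) and *Acaa1b* in CDA-HFD (18.2%) varied most, and *Phyh* in ND (1.26%) and *Scp2* in CDA-HFD (0.975%) least. With 3 libraries on each side, exact permutation of the diets gives no p under 0.10 for a single gene, and p-values therefore come from the fit across genes.

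**Figure D4:**
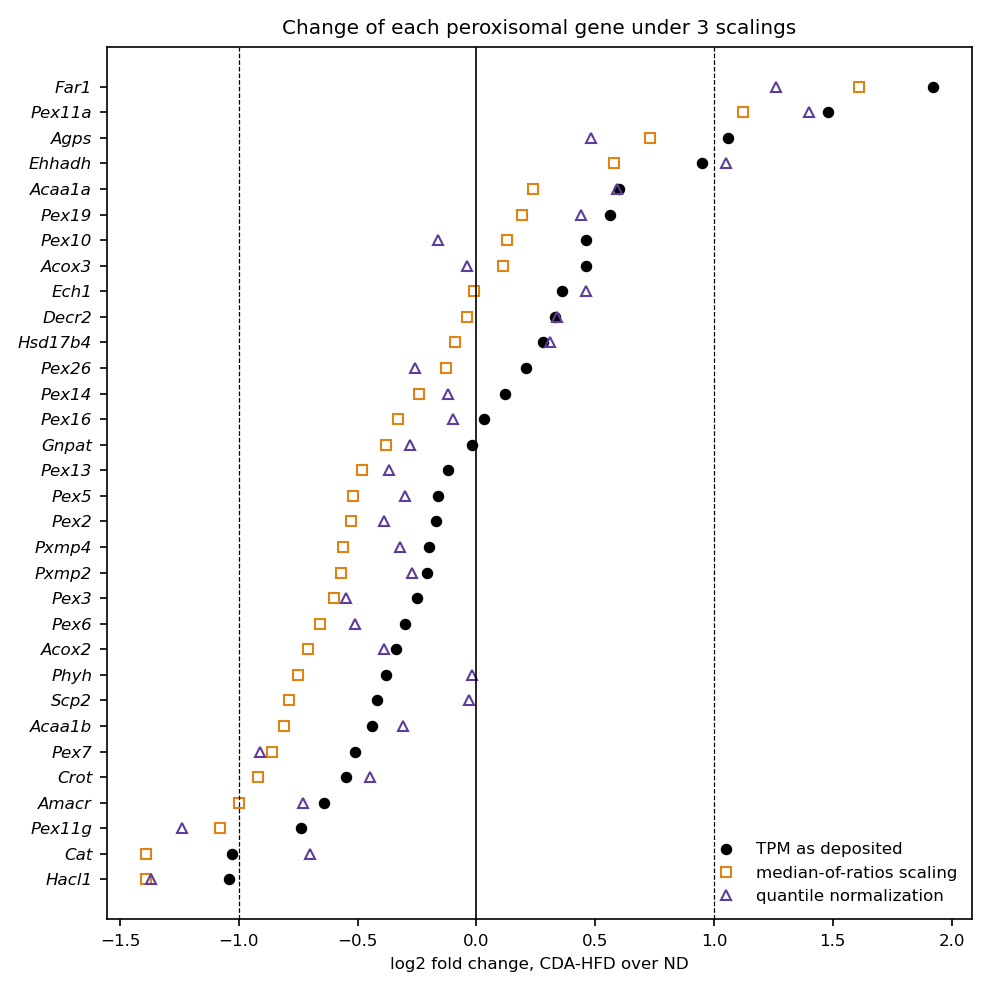
Log2 fold change, CDA-HFD over ND, of each of the 32 genes from TPM as deposited (black), after median-of-ratios scaling (orange squares) and after quantile normalization (purple triangles); dashed lines mark the fold limits. *Far1* and *Pex11a* stay beyond the upper limit on all 3 scales and *Hacl1* beyond the lower one, while *Agps* and *Cat* do not.

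Beside the 32, 13 of 15 other genes of peroxisome biogenesis and division were tested (*Pex5l* and *Gdap1* were not). Of the 13, 0 rose or fell in the limma fit or with voom, and 1, *Acbd4*, fell under median-of-ratios scaling (−1.19) and quantile normalization (−1.08); 7 had an unadjusted p below 0.05, 4 were higher, 3 lower and the median log2 fold change was 0.10.

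Of 49 other peroxisomal enzymes and carriers 45 were tested, and 5 rose, 7 fell, 15 were higher, 19 lower and the median was −0.07. *Acot3*, an acyl-CoA thioesterase, rose from 2.63 ± 0.563 to 35.3 ± 3.34 TPM (3.33 ± 0.13), *Abcd2*, an importer of very long chains, from 5.87 to 25.1 TPM (1.94 ± 0.17) and *Crat*, the carnitine acetyltransferase, from 27.4 to 103.1 TPM (1.89 ± 0.14). *Nudt7*, a hydrolase of coenzyme A, fell from 351.8 ± 28.1 to 37.9 ± 1.499 TPM (−3.18 ± 0.07), *Mpv17l* from 23.3 to 4.21 TPM (−2.22 ± 0.15) and *Pecr*, an enoyl-CoA reductase, from 446.7 to 148.9 TPM (−1.58 ± 0.06). *Abcd3*, an importer of long and branched chains, had means of 430.0 and 416.9 TPM (−0.05 ± 0.08, adjusted p = 0.609), with overlapping diets and a sign that turned under quantile normalization (0.01).

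Of a list of 24 genes of PPAR-alpha, its partners and its targets outside peroxisomes, 23 were tested, and 13 rose, 1 fell, 18 were higher, 2 lower and the median was 1.29. *Fgf21*, a hormone of fasting liver, rose from 0.731 to 67.7 TPM (5.35 ± 0.33), *Acot2* from 4.61 to 130.5 TPM (4.51 ± 0.20) and *Pdk4*, a brake on pyruvate oxidation, from 4.71 to 94.9 TPM (4.03 ± 0.21), while *Cyp4a12a*, a fatty acid hydroxylase, fell from 406.5 to 28.7 TPM (−3.85 ± 0.27). *Ppara* itself was at 69.1 to 104.3 TPM in ND and 68.2 to 106.2 TPM in CDA-HFD (0.10 ± 0.20, adjusted p = 0.675), with a sign that turned under median-of-ratios scaling (−0.26). Of 13 mitochondrial counterparts of the peroxisomal enzymes, 1 rose, 10 were higher, 1 was lower and the median was 0.58. The gene that rose was *Cpt1a*, the gate of mitochondrial fatty acid entry, from 209.6 to 649.7 TPM (1.62 ± 0.11). *Cpt1a*, *Cpt2* and *Acadm* are on the PPAR-alpha list as well, so the mitochondrial and PPAR-alpha lists are not separate sets. The medians of these lists thus lay above the all-gene median of 0.32, and those of the 3 peroxisomal lists below it.

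**Figure D5:**
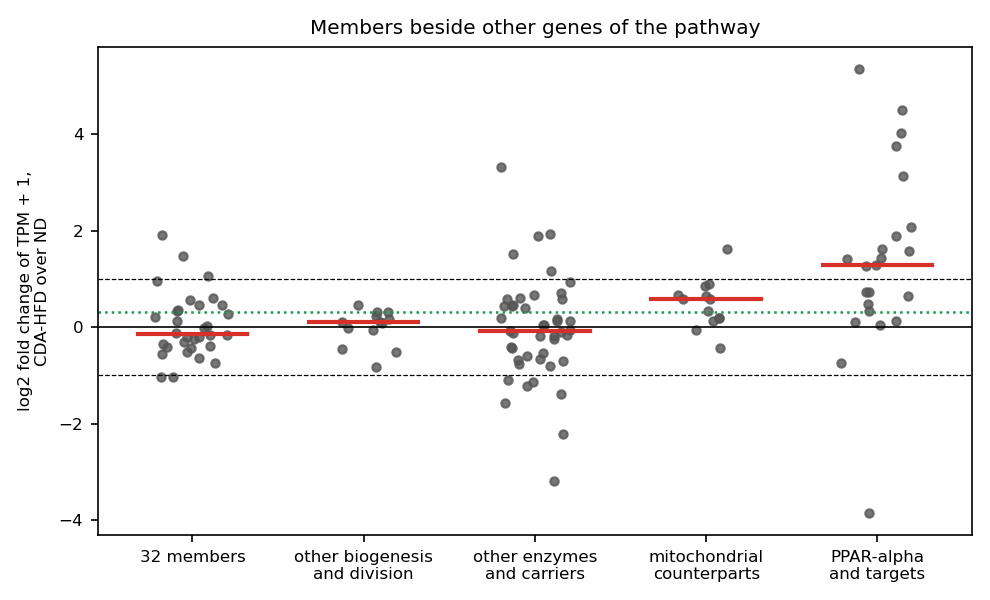
Log2 fold change of TPM + 1, CDA-HFD over ND, for each tested gene of the 32 and of 4 further lists, with the median of each list as a red bar, the fold limits dashed and the all-gene median of 0.32 dotted. The list medians are −0.14, 0.10, −0.07, 0.58 and 1.29 from left to right.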

How the data were processed

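Whole-liver RNA-seq of 6 WT mice was used, 3 per diet, grouped and numbered by their labels. The deposited table held TPM made by the authors, 1 column per library. Per the submitters' processing notes, Trimmomatic 0.39.0, HISAT2 2.2.1 (on GRCm38, also named mm10) and featureCounts 2.0.1 were used for trimming, alignment and counting. Per the labels, libraries were made with Nextera XT. The study's methods pair that kit, for sorted cells, with single-end reads of 75 bases, and whether the liver libraries were read alike is not given in the sources used here. PCR duplicates were removed from the study's RNA-seq, which can lower the reads of abundant genes. The kit does not mark strand, so reads of a gene and of an antisense partner cannot be told apart. How reads in bases shared by overlapping genes were assigned is not given in the sources used here. A level near 0 for such a gene therefore sets no bound on what the overlap did to a member. The annotation release is not given in the sources used here.

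For the comparison, limma 3.58.1 (R 4.3.3) was fitted to log2(TPM + 1), which understates changes of low genes. Diet was the sole term, the eBayes step used a trend, tests were two-sided, and p-values were adjusted (Benjamini-Hochberg) across 14730 genes whose mean reached 1 TPM. The code of the fit was also run on simulated reads, which did not hold the shift of the all-gene median seen here. That run checks the code only. The labels give no batch. Reads were recovered from the steps of TPM times exon length (GENCODE basic annotation of GRCm38, 53149 names matched, 98.4% to 98.5% of values whole within 0.01 reads), at 14125649 to 15301208 reads per ND library and 16830198 to 18919516 per CDA-HFD library; genes above 0 TPM numbered 19793 to 20100 and 22267 to 22731. Promoter windows were from RefSeq. All members were named; from each further list, the 3 largest rises and falls, central genes of the pathway (*Abcd3* and *Ppara* among them) and, from each marker list, the gene of highest level were taken, of which *Alb* alone is printed with its level. A few genes under this rule are left out of the text. *Acbd4* and the genes that overlap members were added after their values were seen. The members and lists were chosen with earlier results of these data known.

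Alternatives were pseudocounts of 0.1 and 0.5, no filter, a filter at 5 TPM, quantile normalization, median-of-ratios scaling, TPM recomputed after dropping the 50 top genes, a robust or trend-free eBayes step, a replicate block, leaving out each library, voom on recovered reads, and log2 fold limits of 0.5 and 1.5. A search for C-terminal targeting signals was planned but not run, since no protein table was used here.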

Additional observations from a re-analysis of the deposited data

How the results depend on the processing

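Of 542 values of single members under the alternatives, 518 kept their direction and their side of the call at both limits. Direction held in every alternative for 23 of the 32 members, and *Far1* (1.26 to 2.24) and *Pex11a* (1.12 to 1.57) passed both limits in all 17. The changes were as follows, and the cause was not tested. Members that rose numbered 6 at a log2 fold limit of 0.5 and 1 at 1.5, and members that fell 6 and 0. The shares of all genes at these limits are not given here, so these counts cannot be read against a background. Under median-of-ratios scaling 4 members fell (*Pex11g* and *Amacr* in addition), 5 were higher and 20 lower (32.2% and 29.8% of all genes); the split of all genes called was 84.8% risen with TPM as deposited (3115 risen, 558 fallen), 70.7% with this scaling (2359 and 976) and 58.9% with quantile normalization (1718 and 1201), and 1914 rose at a minimum mean of 5 TPM. The median of the members less that of all genes was −0.29 with no filter, −0.41 at a minimum of 5 TPM, −0.16 with quantile normalization, −0.40 without the 50 most abundant genes (a set that takes in *Scp2* and *Phyh*) and −0.49 with voom.

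Leaving out 1 library at a time gave 3 to 4 members that rose, 1 to 2 that fell (1 without CDA-HFD replicate 1, *Hacl1* being lost), 10 to 11 higher, 12 to 14 lower and a median difference of −0.49 to −0.40. In these fits 2912 to 3239 of all genes rose and 540 to 568 fell, with 14543 to 14879 tested. The shares of all genes higher or lower in them are not given here. *Gnpat* turned to 0.04 without ND replicate 2, and *Pex16* ran from −0.03 (without CDA-HFD replicate 3) to 0.11.

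Signs also turned for *Pex16* (−0.33 with median-of-ratios, −0.10 with quantile, −0.05 without the 50 most abundant genes, −0.02 with voom), *Pex14* (−0.24 and −0.12 with the first 2), *Pex26* (−0.13 and −0.26), *Pex10* and *Acox3* (−0.16 and −0.04, quantile), and *Hsd17b4*, *Decr2* and *Ech1* (−0.09, −0.04 and −0.01, median-of-ratios). Outside the members, *Abcd3* turned with quantile normalization (0.01) and without CDA-HFD replicate 3 (0.00), *Ppara* with median-of-ratios, quantile, without ND replicate 3 and without CDA-HFD replicate 1 (−0.26, −0.06, −0.05 and −0.01, up to 0.31 on leaving out libraries), and the erythroid gene *Hba-a1* with median-of-ratios, without the 50 most abundant genes, without ND replicate 1, without CDA-HFD replicate 2 and with voom (−0.32, −0.03, −0.07, −0.31 and −0.01, up to 0.28). With median-of-ratios scaling 12 of the other enzymes fell in place of 7, and *Acbd4* fell with either scaling. Marker counts are given beside their sums; at a minimum of 5 TPM 3 T and NK cell markers and 1 B cell marker rose, and 0 hepatocyte markers fell with no filter or a robust eBayes step.

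At the adjusted p alone, *Pex5* lost its call in 6 alternatives, *Pex10* in 3, *Acox3* in 2, *Acaa1a*, *Hsd17b4*, *Decr2* and *Ech1* with median-of-ratios and *Acaa1b*, *Scp2* and *Phyh* with quantile; of the 8 members without a call all but *Pex26* were lower in at least 1 alternative.

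Libraries of the same replicate number correlated weakly in their deviations from the diet means (0.086, 0.039 and 0.089), each best with its own number, and the labels give no shared origin. With the replicate block 3 members rose, 2 fell, 11 were higher, 13 were lower and the median difference was −0.46; 0 calls of named genes at both limits changed, but at the adjusted p alone *Pex5* was lost (0.069) and *Pxmp4* gained (0.0266), and 3687 genes were called in place of 3673.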
